A study of Mus musculus with 16 samples.

Results

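The response of RAW 264.7 cells to isoproterenol was measured under a control siRNA, that is, with Cebpb left at its own level. RAW 264.7 is a mouse macrophage-like line that arose from a virus-induced tumour, so all cultures share 1 origin. Members of the comparison were the libraries titled as negative-control siRNA with isoproterenol and those titled as negative-control siRNA alone, 4 against 4, which are 8 of the 16 libraries of the series. All 8 cultures were transfected with 25 nM of a commercial non-targeting siRNA, and isoproterenol was added to 4 of them 24 h later. The other 4 cultures received no agent, and no vehicle is named. Neither the dose of isoproterenol nor the time of harvest is stated in the sources used here. Each group holds 2 libraries from each of 2 experiments, called experiments 1 and 2 here, and the design text calls the 4 libraries biological replicates. Whether they came from separate thaws or wells is not stated, so p-values measure the spread between these libraries. The other 8 libraries hold cells given 1 siRNA that targets Cebpb, which encodes the transcription factor C/EBPβ, without and with isoproterenol, and enter only the last comparison. The question in the series title is how C/EBPβ shapes the transcriptome of macrophages stimulated through β-adrenergic receptors, and the 8 libraries give that stimulation by itself.

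Isoproterenol is a synthetic catecholamine that activates β-adrenergic receptors. These receptors couple to the stimulatory G protein and adenylyl cyclase, which makes cyclic AMP. Cyclic AMP releases the catalytic subunits of protein kinase A and activates the exchange factor Epac, which loads the small G protein Rap1. Protein kinase A phosphorylates CREB, a transcription factor that binds the cyclic AMP response element (CRE) in promoters of immediate early genes. Phosphodiesterases break cyclic AMP down, and some of their genes are themselves induced by it. In macrophages this pathway is known for changing cytokine output and for slowing proliferation.

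RNA was sequenced from its 3′ ends with the Lexogen QuantSeq kit, so 1 read stands for 1 transcript end and levels in reads per 1000000 reads of all kinds (RPM) carry no transcript length. Depth was 18.7 to 24.2 M reads a library, with 11.8 to 15.5 M assigned to genes. Deposited values of 1 RPM or less are listed as 0, a floor of 18 to 24 reads in these libraries. Of 52636 genes in the files, 10729 lay above the floor in at least 4 of the 8 libraries and were tested, 637 of them at the floor in at least 1 library. The first principal component (48.28% of the variance) separated the experiments, and the second (16.49%) separated libraries with isoproterenol (−10.18 to −6.29) from those without (5.81 to 9.63). All 21 listed macrophage identity genes were above the floor, with a summed level of 4110 to 4906 RPM without and 4809 to 5682 RPM with isoproterenol. Of markers of other cell types, 9 of 10 for fibroblasts, 10 of 10 for epithelium, 10 of 11 for T and NK cells, 6 of 8 for B cells, 8 of 10 for neutrophils and 7 of 9 for dendritic cells were at the floor in all 8 libraries. As RNA came from whole cultures, fewer cells of a type and less RNA per cell cannot be told apart. Mitochondrial rRNA was 27750 ± 1936 RPM without and 31760 ± 779 RPM with isoproterenol (SD, n = 4 each), a ratio of 1.124 in experiment 1 and 1.165 in experiment 2. Mitochondrial mRNA was 5174 ± 251 and 5701 ± 232 RPM. Each had an exact two-sided permutation p = 0.0286, the smallest that 4 against 4 libraries allow, or 0.129 after Benjamini-Hochberg adjustment over 9 library measures. Their part in the gene-level results was not tested.

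Isoproterenol was followed by higher levels of 296 genes and lower levels of 226, together 4.87% of the genes tested (2.76% higher and 2.11% lower; limma, Benjamini-Hochberg adjusted p under 0.05, experiment as a term). Most changes were small: 14 genes rose and 1 fell by at least 2-fold, and 56 rose and 18 fell by at least 1.5-fold. Among the genes tested, 5 were at the floor in all 4 libraries without isoproterenol and above it in all 4 with it, and 2 the reverse. Such genes passed the filter through 1 group alone, and the counts of this paragraph include Il1b, Krt23 and Srpk3 of them. The median size of a called log2 difference was 0.31, against a median standard error (SE) of 0.084 over all genes tested and a median difference of 0.0041. All 522 genes had the same sign in both experiments, which is no separate check, since the calls rest on both experiments together. Experiments 1 and 2 taken singly called 23.6% and 15.9% of the 522. In 164 of the 296 genes that rose and 115 of the 226 that fell, the 4 libraries with isoproterenol did not overlap the 4 without, which held for 5.76% of all genes tested. The plot of change against level shows how few genes moved far from 0 at any level. Without control siRNA replicate 1 of experiment 1 the counts were 194 and 109. The lower count was 126 without control siRNA replicate 2 of experiment 2 and 145 without replicate 1 of experiment 1 with isoproterenol. Values as deposited, without scaling, gave 365 higher and 133 lower genes, so 73.3% of calls were higher against 56.7% after scaling. Unless a loss or number of fits is given beside the gene, a named call held in every fit without 1 of the 8 libraries. This covers neither genes named only for a full CRE nor the difference between siRNA groups. Nor does it cover other settings of the fit, some of which ended more of the named calls.

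**Figure D1:**
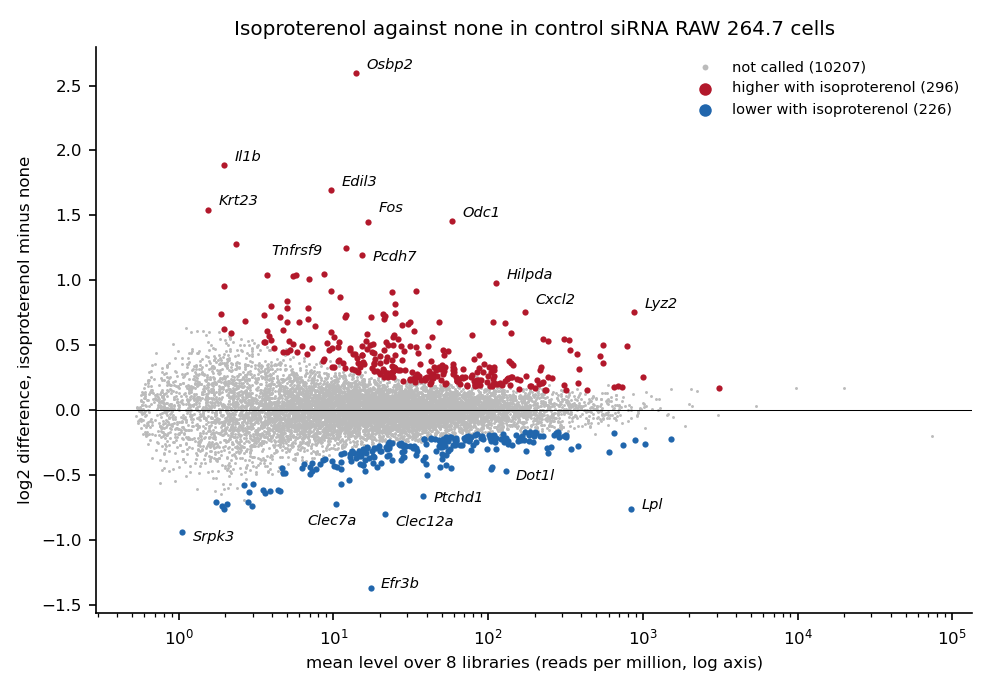
Each point is 1 of 10729 genes, with its mean level over the 8 libraries in RPM (log axis) and its log2 difference with against without isoproterenol. Called genes are red (296 higher) or blue (226 lower), and Osbp2 at 2.60 and Efr3b at −1.36 mark the ends of the range.

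Of 15 tested receptor, G protein and adenylyl cyclase genes none rose, with a median log2 difference near 0 (all genes, 0.0041). Rgs2, a regulator that shortens signalling of G proteins, fell by 0.32 ± 0.05 on the log2 scale (adjusted p = 4.34e-05), from 670 ± 161 to 546 ± 129 RPM. It was the only lower member among 28 other immediate early and cyclic AMP-induced genes. Of the 28, 6 rose, against 2.76% of all genes called higher.

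Genes that end the cyclic AMP signal rose in part. Of 10 tested phosphodiesterase genes 3 were called higher, against 2.76% of all genes, and none lower, while the list's median was −0.05. Pde4b, which encodes a cyclic AMP-specific enzyme of leukocytes, was at 9.18 and 10.6 RPM in experiment 1 and 8.04 and 8.22 RPM in experiment 2 without isoproterenol, and at 17.7 and 15.2, and 13.5 and 14.6 RPM with it. Every library with the agent lay above every library without it, and the log2 difference was 0.73 ± 0.10 (adjusted p = 9.33e-06). Pde3b rose by 0.70 ± 0.13, from 5.09 ± 0.558 to 8.53 ± 1.77 RPM. Pde8a, the gene of a high-affinity cyclic AMP phosphodiesterase, rose by 0.50 ± 0.10, from 20.1 ± 4.61 to 28.5 ± 3.51 RPM. The Pde8a call was lost without replicate 2 of experiment 1 with isoproterenol (log2 0.38, adjusted p = 0.0533), the library with the highest level, 33.7 RPM. Among 15 protein kinase A and Epac effector genes, Prkar1a, a regulatory subunit of the kinase, rose by 0.16 ± 0.05 (adjusted p = 0.042) and Rap1b, a target of Epac, by 0.16 ± 0.05 (adjusted p = 0.0443). Prkar1a was called in 0 and Rap1b in 1 of the 8 fits that left out a library, with adjusted p up to 0.12 and 0.142.

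Of 11 tested CREB family, coactivator and salt-inducible kinase genes 2 rose, against 2.76% of all genes called higher. Crem encodes cyclic AMP response modulators, among them the inducible repressor ICER. Crem was at 7.71 and 7.86 RPM in experiment 1 and 7.05 and 8.08 RPM in experiment 2 without isoproterenol, and at 13.1 and 14.4, and 14.7 and 15.3 RPM with it. The groups were well apart, with a 1.84-fold difference (log2 0.88 ± 0.10, adjusted p = 5.49e-07). Reads were counted per gene, so the transcript forms of Crem were not separated. Sik3, a salt-inducible kinase gene, rose by 0.29 ± 0.08 (adjusted p = 0.0252), and the call was made in 4 of the 8 fits that left out a library. Nr4a1, a nuclear receptor gene and well-known CREB target, was listed at 0 in all 8 libraries.

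Stretches of promoters that hold a CRE are shown to place the motif the pathway acts through beside the genes that rose. RefSeq start-site windows of 300 bases (250 before to 50 after the start, GRCm38.p6) were searched on both strands for the full CRE, TGACGTCA, and for its core, TGACG, which lies within the full CRE. The full CRE occurred in 1.79% of the 32851 windows of the table and the core in 20.8%. Of 8329 tested genes with at least 1 window, 3.93% held the full CRE and 37.7% the core, so the core is common among expressed genes. The full CRE was held by 9 genes that rose: Maff, Prkar1a and Rap1b, which are shown, and Chpf, Arl5b, Cope, Dusp1, Epb41 and Ldha. Fos and Odc1, which hold the core, were added after their values had been seen. The full CRE was also found before 5 genes that fell, Plk2, Dtl, Brca2, Troap and Kif5c. Each stretch reads 5′ to 3′ along the gene, with the motif in capitals.
Maff: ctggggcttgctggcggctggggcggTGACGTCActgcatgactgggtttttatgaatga
Prkar1a: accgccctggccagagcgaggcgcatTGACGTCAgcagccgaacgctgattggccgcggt
Rap1b: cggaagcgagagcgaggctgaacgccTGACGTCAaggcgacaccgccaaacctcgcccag
Fos: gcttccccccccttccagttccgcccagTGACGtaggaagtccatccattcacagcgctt
Odc1: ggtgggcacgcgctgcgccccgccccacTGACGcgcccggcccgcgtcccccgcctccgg
The Maff stretch lies at chr15:79347465-79347524 on the plus strand, with the motif starting 29 bases before the start site. The Prkar1a stretch is chr11:109650874-109650933 (plus strand, 49 bases before), and the same motif starts 38 bases after another start site of Prkar1a. The Rap1b stretch is chr10:117845983-117846042 (minus strand, 42 bases before). Fos is shown at chr12:85473796-85473855 (plus strand, 66 bases before) and Odc1 at chr12:17544766-17544825 (plus strand, 79 bases before). Windows were found for 231 of the 296 genes that rose (78.0%), so a comparison of motif shares between genes that rose and the rest is void for want of coverage, and the stretches are a description only.

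Immediate early genes gave some of the largest changes. Odc1 (GRCm38 chromosome 12, 17544794 to 17551505, plus strand) encodes ornithine decarboxylase, the rate-limiting enzyme of polyamine synthesis. Its level was 25.8 and 30.6 RPM in experiment 1 and 34.4 and 31.5 RPM in experiment 2 without isoproterenol, and 71.5 and 89.2, and 98.0 and 83.8 RPM with it. The lowest library with the agent was above the highest without it by more than the whole range of the untreated libraries. Odc1 rose 2.75-fold (log2 1.46 ± 0.07, adjusted p = 2.89e-13). Fos, an AP-1 transcription factor gene on the same chromosome (85473890 to 85477273, plus strand), was at 8.40 and 6.59, and 11.7 and 9.47 RPM without and at 24.5 and 24.1, and 26.8 and 23 RPM with isoproterenol. The 4 treated libraries were close to each other, and Fos rose 2.73-fold (log2 1.45 ± 0.11, adjusted p = 5.11e-10).

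Of 16 tested AP-1 and MAF factor genes, 6 rose and none fell (median 0.12), against 2.76% of all genes called higher. Fosl2, a Fos-related factor, rose by 0.66 ± 0.08, from 23.4 ± 4.45 to 37.4 ± 3.63 RPM. Jun, the partner of Fos, rose by 0.19 ± 0.05 (adjusted p = 0.0251) and was called in 2 of the 8 fits that left out a library. Maff, a small MAF factor, rose by 0.74 ± 0.18 near the floor, from 1.24 ± 0.838 to 2.5 ± 0.206 RPM, and was called in 5 of the 8. The list's count was 3 to 6 in those fits, with 3 without control siRNA replicate 1 of either experiment or without replicate 1 of experiment 2 with isoproterenol. Ier3, an early response gene of cell survival, rose by 0.68 ± 0.05 (82.0 ± 9.23 to 134 ± 14.7 RPM). Thbd, the anticoagulant receptor thrombomodulin, rose by 1.04 ± 0.14, and the antiproliferative gene Btg1 by 0.48 ± 0.10. Of 14 tested MAP kinase feedback genes, phosphatases and Sprouty family members, 2 rose, both phosphatases: Dusp5 by 0.92 ± 0.08 (23.4 ± 3.25 to 44.8 ± 4.0 RPM) and Dusp6 by 0.33 ± 0.06. Dusp1, a phosphatase of the same kind held in the immediate early list, rose by 0.24 ± 0.07 (adjusted p = 0.0459) and was called in 3 of the 8 fits that left out a library. The plot of levels by library shows Odc1, Fos, Crem and Pde4b beside genes described next.

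**Figure D2:**
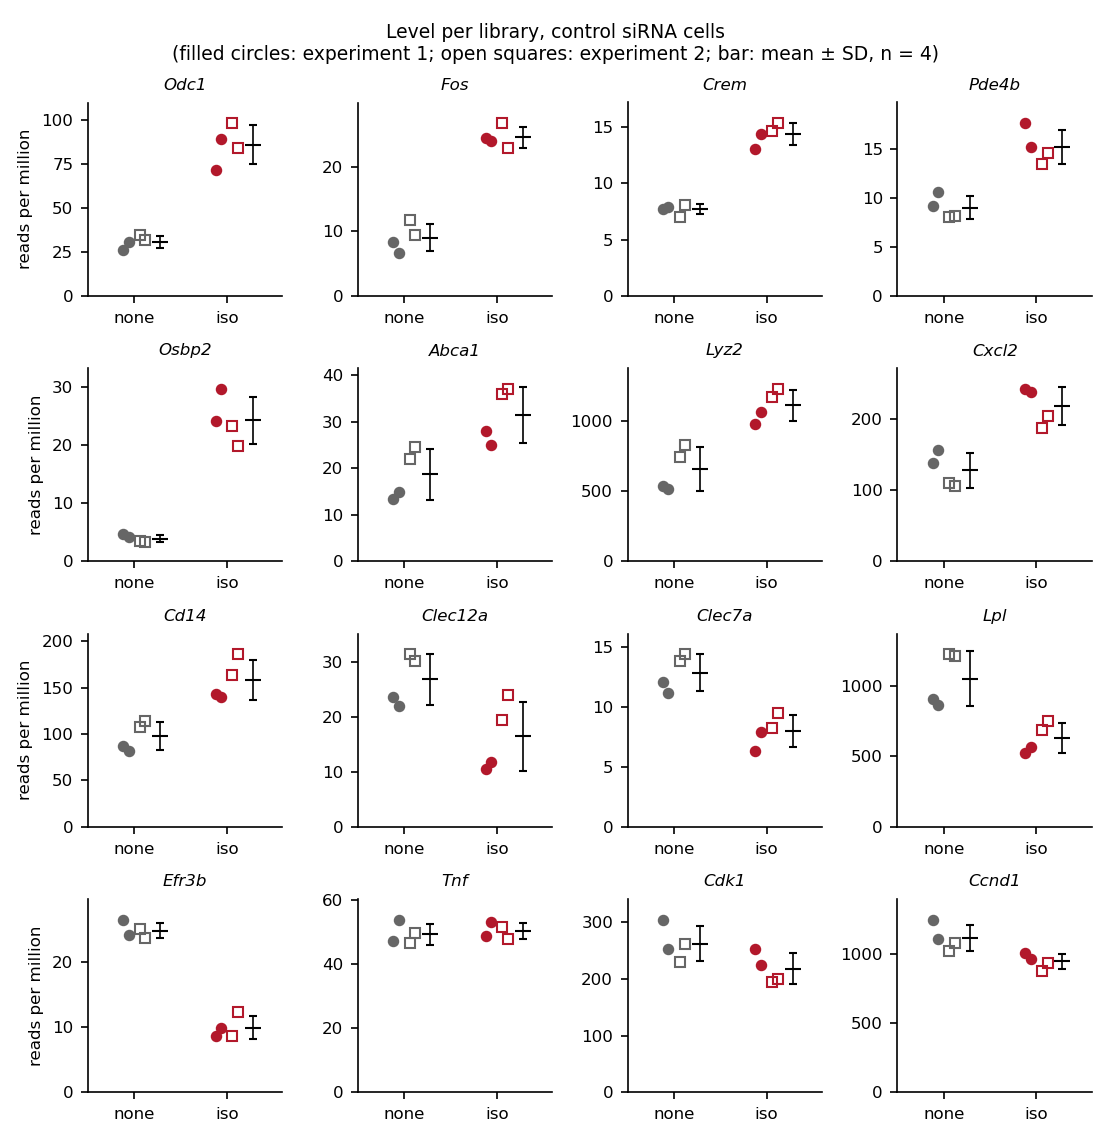
Level in RPM of 16 genes in each of the 8 control siRNA libraries, without (none) and with isoproterenol (iso), each axis starting at 0. Filled circles are experiment 1, open squares experiment 2 and bars the mean ± SD of 4 libraries, with Odc1 at 25.8 to 34.4 without and 71.5 to 98.0 with the agent, and Tnf overlapping throughout.

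Listed genes of classical (M1) activation and of chemokines rose or did not pass the test, and none fell. Of 14 tested genes of classical (M1) activation, 7 rose (median 0.24), and of 12 chemokines, 6 rose (median 0.29), against 2.76% of all genes. The 7 were the cytokine genes Osm, Il1b and Il18, and Cd86, Ptgs2, Acod1 and Fcgr1, which encode no cytokine. Il18 was called in 2 of the 8 fits that left out a library. Il1b (chromosome 2, 129364570 to 129371139, minus strand), the gene of interleukin-1β, was listed at 0 in all 4 untreated libraries and at 3.36 and 5.13 RPM in experiment 1 and 3.24 and 3.95 RPM in experiment 2 with isoproterenol. It passed the filter on low values through the treated libraries alone, so its call, 1 of the 7, is given no test here. Krt23, a keratin gene, had the same pattern, at 0 without and at 2.47 to 3.88 RPM with the agent. Cxcl2, a neutrophil-attracting chemokine, was at 139 and 157, and 111 and 106 RPM without and at 243 and 239, and 187 and 205 RPM with isoproterenol. The groups did not overlap although experiment 1 ran higher throughout, and Cxcl2 rose 1.69-fold (log2 0.76 ± 0.06, adjusted p = 5.11e-10). Osm, the cytokine oncostatin M, rose 1.88-fold (16.4 ± 2.84 to 31.3 ± 4.93 RPM) and Cd86, a costimulatory ligand, 1.66-fold (16.1 ± 2.70 to 27 ± 1.18 RPM). Ptgs2, the inducible prostaglandin synthase, rose by log2 0.70 ± 0.08. Among further chemokines that rose were Ccl9 (0.54 ± 0.05), platelet factor Pf4 (0.50 ± 0.05), Ccl7 (0.47 ± 0.09) and the monocyte attractant Ccl2 (0.31 ± 0.06). Tnf did not pass the test, at 49.3 ± 3.34 without and 50.4 ± 2.40 RPM with isoproterenol (log2 0.01 ± 0.06, adjusted p = 0.973).

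Genes of alternative (M2) activation moved both ways. Of 12 tested, 4 rose and 1 fell, against 2.76% higher and 2.11% lower of all genes. Of the 27 in the files, 13 were at the floor in all 8 libraries. Il1rn, which encodes the antagonist of the interleukin-1 receptor, rose by 0.59 ± 0.06 (111 ± 37.0 to 169 ± 53.5 RPM), with 0.61 and 0.58 in experiments 1 and 2. The scavenger receptor Msr1 rose by 0.42 ± 0.05, the interleukin-4 receptor chain Il4ra by 0.44 ± 0.08 and the galactose-type lectin Clec10a by 0.34 ± 0.05. Clec7a, the β-glucan receptor dectin-1, fell by 0.72 ± 0.10. The widely used M2 genes Arg1 and Chil3, and Il10 and Vegfa, were listed at 0 in all 8 libraries, as were Il6 and Nos2 of classical activation. Mrc1, the mannose receptor, was listed at 1.34 and 1.02 RPM in 2 libraries with isoproterenol and at 0 in the other 6. Changes of these genes below the floor could not be seen.

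Other inflammatory lists changed in few members, to be read against 2.76% of all genes called higher. Of 11 interleukin-1 family genes 4 were called higher, 1 of them Il1b, whose call is given no test here. Nlrp3, the inflammasome sensor, rose by 0.26 ± 0.06 (called in 6 of 8 fits that left out a library) and Il18 by 0.38 ± 0.11 (called in 2). Of 25 NF-κB subunit and feedback genes 3 rose (median 0.12), among them Nfkbie, an inhibitor of NF-κB, by 0.42 ± 0.09. Of 18 tumour necrosis factor receptor and costimulation genes 3 rose. Tnfrsf9, the T cell costimulator 4-1BB, was at 9.66 and 10.2, and 5.61 and 3.84 RPM without and at 20.2 and 21.4, and 12.9 and 13.0 RPM with isoproterenol. It rose 2.37-fold (log2 1.25 ± 0.12, adjusted p = 3.8e-08), with the experiments at different levels but the groups apart. Of 40 type I interferon response genes 1 rose, Irf7 (0.36 ± 0.08), of 16 antigen presentation genes 1 rose, the invariant chain Cd74 (0.38 ± 0.08), and of 14 STAT and SOCS genes none was called.

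Many receptors for pathogens and immune complexes rose. Of 18 tested C-type lectin genes 10 rose and 2 fell, and of 15 Fc receptor and complement genes 10 rose and none fell (medians 0.25 and 0.26), against 2.76% of all genes called higher. Clec4e, the mycobacterial glycolipid receptor Mincle, was at 222 and 226, and 262 and 283 RPM without and at 334 and 349, and 398 and 398 RPM with isoproterenol. All treated libraries were above all untreated ones, and Clec4e rose 1.47-fold (log2 0.55 ± 0.05). Its neighbours in the same receptor cluster moved by similar amounts: Clec4d by 0.55 ± 0.05, Clec4n, or dectin-2, by 0.74 ± 0.08, and Clec4a1 by 0.57 ± 0.06. Clec12a, an inhibitory lectin that senses uric acid crystals, went the other way, from 23.7 and 21.9, and 31.4 and 30.2 RPM to 10.5 and 11.9, and 19.3 and 24.0 RPM. Both experiments showed the decrease, but experiment 2 with isoproterenol reached the level of experiment 1 without it, and the log2 difference was −0.80 ± 0.09 (adjusted p = 2.35e-06).

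Among the Fc and complement genes, the complement component genes C1qa (0.43 ± 0.06) and C1qb (0.31 ± 0.06), the complement receptor chain Itgam (0.35 ± 0.05), the Fc receptor Fcgr3 (0.34 ± 0.06) and properdin, Cfp (0.32 ± 0.06), had the smallest adjusted p (1.33e-05 to 0.00136). The list's count of 10 was 2 in experiment 1 alone, 2 in experiment 2 alone and 8 to 10 when 1 of the 8 libraries was left out. Pilra, an inhibitory receptor, rose by 0.49 ± 0.07 and Trem1, which amplifies myeloid inflammation, by 1.04 ± 0.14 (3.73 ± 0.951 to 7.73 ± 1.06 RPM). Tyrobp, the signalling adaptor of Trem1, rose by 0.21 ± 0.06 (adjusted p = 0.0432) and was called in 1 of the 8 fits that left out a library. Cd14, the lipopolysaccharide co-receptor, was at 87.4 and 82.1, and 108 and 114 RPM without and at 143 and 140, and 163 and 186 RPM with isoproterenol. It rose 1.59-fold (log2 0.67 ± 0.05, adjusted p = 1.08e-09), while 1 more of the 20 genes of the Toll-like receptor list rose, Tlr8.

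Lysosomal and secreted antimicrobial genes followed. Of 30 lysosome and phagocytosis genes 5 rose and 1 fell (median 0.04), against 2.76% higher and 2.11% lower of all genes. Lyz2 (chromosome 10, 117277331 to 117282321, minus strand), lysozyme of macrophages, was at 536 and 515, and 743 and 830 RPM without and at 979 and 1062, and 1169 and 1229 RPM with isoproterenol. The lowest treated library was above the highest untreated one, and Lyz2 rose 1.69-fold (log2 0.76 ± 0.06), with 0.92 in experiment 1 and 0.60 in experiment 2. Slpi, a secreted protease inhibitor, rose by 0.58 ± 0.05 (62.0 ± 2.95 to 94.6 ± 7.95 RPM), and the lysosomal proteases Ctsc and Ctsl rose by 0.53 ± 0.05 and 0.44 ± 0.05. Of the 21 macrophage identity genes 8 rose, against 2.76% of all genes, and none fell (median 0.12). Lyz2, Cd14, Itgam, Fcgr3 and Fcgr1 were among them, so these calls overlap those of the receptor lists. Of other cell types' markers S100a8 rose by 0.80 ± 0.15, from 2.85 ± 0.497 to 5.03 ± 0.587 RPM, and was the 1 tested member of 10 neutrophil markers. The list summed to 2.28 to 4.56 RPM without and 4.44 to 5.84 RPM with isoproterenol, and S100a9, Ly6g, Mpo and Elane were listed at 0 in all 8 libraries. Ighm, a B cell marker, fell by 0.40 ± 0.08, with Cd79a, Ms4a1 and Pax5 at 0 in all 8 libraries.

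**Figure D3:**
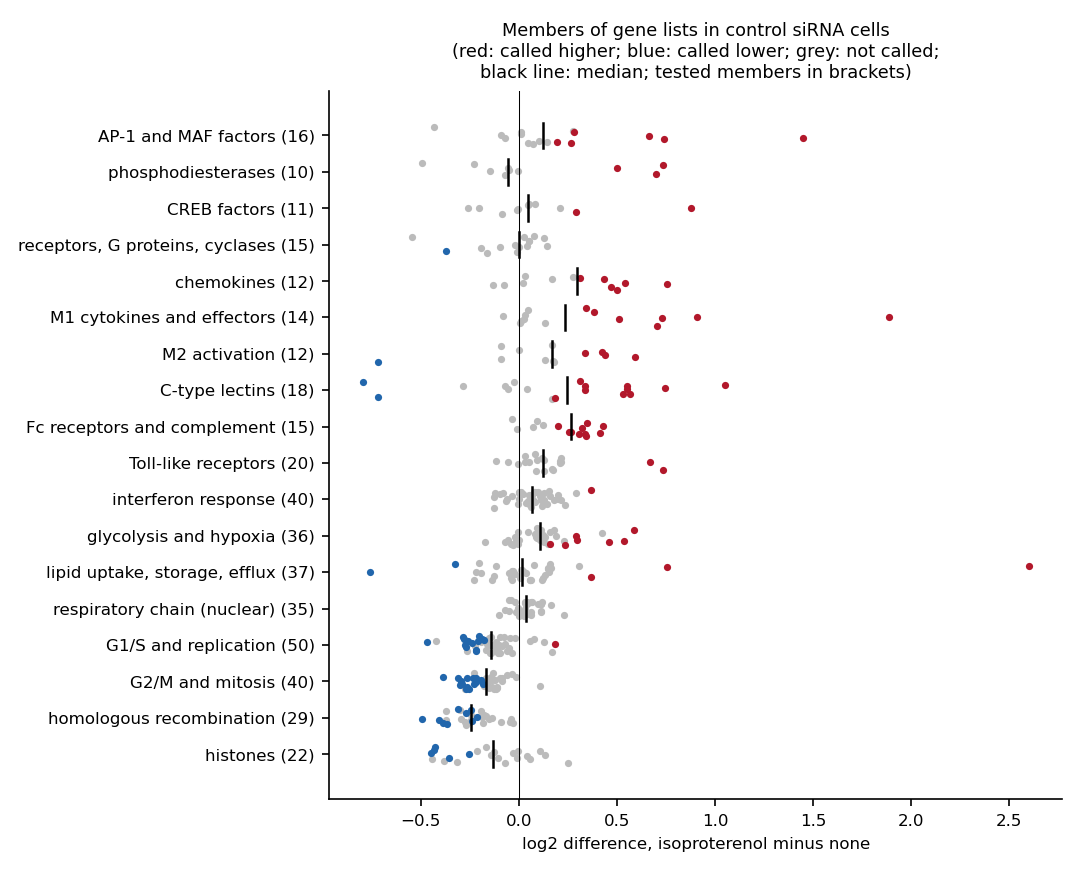
Log2 difference with against without isoproterenol for the tested members of 18 gene lists in control siRNA cells. Red members were called higher, blue lower and grey neither, and black lines mark medians, from 0.29 for chemokines to −0.24 for homologous recombination.

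Lipid genes held the largest increase of the whole comparison and a large decrease at a high level. Of 37 tested genes of lipid uptake, storage and efflux, 3 rose and 2 fell (median 0.02). Of all genes, 2.76% were called higher and 2.11% lower. Osbp2 (chromosome 11, 3703731 to 3863903, minus strand) encodes an oxysterol-binding protein of the ORP family. It was at 4.72 and 4.17, and 3.52 and 3.31 RPM without and at 24.1 and 29.7, and 23.2 and 19.9 RPM with isoproterenol. Both experiments gave the same size (log2 2.55 and 2.64), and Osbp2 rose 6.06-fold (log2 2.60 ± 0.10, adjusted p = 1.7e-15). Abca1, the cholesterol efflux transporter, was at 13.3 and 14.9, and 22.0 and 24.5 RPM without and at 28 and 25.0, and 35.9 and 37.1 RPM with the agent, and rose 1.68-fold (log2 0.75 ± 0.08). Lpl (chromosome 8, 68880491 to 68907448, plus strand), lipoprotein lipase, which releases fatty acids from lipoprotein triglyceride, was at 905 and 864, and 1226 and 1213 RPM without and at 524 and 564, and 690 and 751 RPM with isoproterenol. Every treated library was below every untreated one, a 1.69-fold decrease (log2 −0.76 ± 0.04, adjusted p = 1.02e-11). Lipa, the lysosomal acid lipase, fell by 0.33 ± 0.05, and the lipid droplet coat gene Plin2 rose by 0.37 ± 0.05. Hilpda, a lipid droplet protein that inhibits the lipase of droplets, rose 1.97-fold (74.6 ± 21.3 to 150 ± 43.3 RPM; log2 0.98 ± 0.06).

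Of 30 sterol and fatty acid synthesis genes, 4 rose, all by small amounts, against 2.76% of all genes called higher. Among them were Msmo1 (0.23 ± 0.05), Cyp51 (0.20 ± 0.05) and Hmgcs1 (0.17 ± 0.05), enzymes of sterol synthesis. The Msmo1 call held whichever library was left out, and those of Cyp51 and Hmgcs1 were made in 7 and 1 of the 8 fits. The list's count was 1 to 3 in those 8 fits. Of 36 glycolysis and hypoxia genes 7 rose and none fell (median 0.11), against 2.76% of all genes called higher. The mTOR inhibitor Ddit4 rose by 0.59 ± 0.08, the mitophagy receptor Bnip3 by 0.54 ± 0.09, the glucose transporter Slc2a1 by 0.46 ± 0.07 (45.8 ± 6.84 to 63.8 ± 8.14 RPM) and Hif1a, the hypoxia-inducible factor itself, by 0.30 ± 0.05. Of 17 polyamine and arginine genes, Smox, spermine oxidase, rose by 0.30 ± 0.06 beside Odc1.

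Adhesion genes were among those with the largest relative increases. Of 30 tested genes of integrins, adhesion and motility, 9 rose and 1 fell (median 0.06), against 2.76% higher and 2.11% lower of all genes. Edil3, a secreted integrin ligand, was at 3.52 and 5.31, and 5.16 and 4.15 RPM without and at 14.2 and 16.9, and 14.7 and 13.3 RPM with isoproterenol, a 3.23-fold increase (log2 1.69 ± 0.13). Pcdh7, a protocadherin, rose from 7.87 and 7.03, and 10.9 and 11.3 RPM to 17.3 and 20.1, and 24.9 and 23.2 RPM, 2.29-fold (log2 1.19 ± 0.09). In both genes the groups were fully apart. The integrin regulator Cyth1 rose by 0.92 ± 0.11, its binding partner Cytip by 0.79 ± 0.12, the laminin receptor chain Itga6 by 0.50 ± 0.07 and the gelatinase Mmp9 by 0.38 ± 0.06. Of 12 osteoclast differentiation genes 3 rose, namely Fosl2, Mmp9 and the fusion receptor Dcstamp (0.45 ± 0.08).

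The largest decrease was that of Efr3b (chromosome 12, 3962554 to 4038915, minus strand), a plasma membrane scaffold of a phosphatidylinositol kinase. Its level was 26.4 and 24.1, and 25.0 and 23.7 RPM without and 8.66 and 9.89, and 8.69 and 12.4 RPM with isoproterenol. The untreated libraries were close together and all above the treated ones, a 2.57-fold decrease (log2 −1.36 ± 0.10, adjusted p = 4.37e-10). Ptchd1 fell by 0.66 ± 0.07 and the histone methyltransferase Dot1l by 0.47 ± 0.05 (149 ± 12.2 to 110 ± 12.3 RPM). Fam49a, a regulator of Rac signalling, fell by 0.57 ± 0.10, and Ints10, a subunit of the Integrator complex, by 0.54 ± 0.09. Srpk3, a splicing factor kinase, was at 3.15 and 2.46, and 1.19 and 1.61 RPM without and listed at 0 in all 4 libraries with isoproterenol. It passed the filter through the untreated libraries alone and is given no test.

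Many cell cycle genes fell by small amounts. Of 50 tested genes of G1/S and DNA replication 13 fell and 1 rose (median −0.14, 45 of 50 below 0), of 40 of G2/M and mitosis 16 fell (median −0.17, 39 below 0), and of 29 of homologous recombination and its checkpoint 9 fell (median −0.24, 29 below 0), against 2.11% of all genes called lower. Summed levels did not overlap between the groups: the G2/M genes came to 4784 to 5081 RPM without and 4249 to 4716 RPM with isoproterenol. The G1/S genes came to 5196 to 5508 and 4851 to 5015 RPM and the recombination genes to 668 to 700.4 and 572 to 619 RPM. Sums without overlap were not particular to these lists. Those of the AP-1 and MAF genes (792 to 888 and 929 to 975 RPM) and the chemokines (1899 to 2091 and 2476 to 2552 RPM) were also apart, with higher values under isoproterenol. Sums of other lists overlapped, such as the M2 genes (846 to 1037 and 1036 to 1289 RPM). The replication gene that rose was the cyclin-dependent kinase inhibitor Cdkn1a (0.18 ± 0.05), called in 3 of the 8 fits that left out a library. Ccnd1, cyclin D1, was at 1249 and 1109, and 1024 and 1081 RPM without and at 1010 and 966, and 882 and 933 RPM with isoproterenol, which is lower in both experiments with a log2 difference of −0.26 ± 0.05 (adjusted p = 0.00104). Mcm6, a subunit of the replicative helicase, fell by 0.28 ± 0.05, Rrm2, a subunit of ribonucleotide reductase, by 0.28 ± 0.06, and the maintenance methyltransferase gene Dnmt1 by 0.27 ± 0.05.

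Of the mitotic genes, Cdk1, the mitotic kinase, went from 304 and 252, and 230 and 262 RPM to 253 and 225, and 195 and 200 RPM (log2 −0.29 ± 0.06, adjusted p = 0.00293). The groups overlapped, in experiment 1 by a margin of less than 2 RPM, and did not overlap in experiment 2; on the scaled values they were apart within both experiments. Ccna2, cyclin A2, fell by 0.29 ± 0.05, topoisomerase Top2a by 0.26 ± 0.05 and the condensin subunit Ncapd2 by 0.30 ± 0.05. Bard1, the partner of Brca1, was at 55.9 and 43.2, and 39.7 and 49.1 RPM without and at 38.9 and 33.0, and 34.5 and 29.0 RPM with isoproterenol, with the groups just apart (log2 −0.49 ± 0.08, adjusted p = 3.92e-04). E2f7, a repressor of E2F targets, fell by 0.47 ± 0.09 and Esco2, a cohesin acetyltransferase, by 0.45 ± 0.09. Fancd2 (−0.37), Brca2 (−0.27) and Chek1 (−0.24) were called in 3, 5 and 3 of the 8 fits that left out a library. On values as deposited, 7, 9 and 3 genes of the replication, mitosis and recombination lists fell in place of 13, 16 and 9, with medians of −0.12, −0.14 and −0.22. Leaving out 1 library gave 6 to 10, 11 to 15 and 1 to 7. The replication count was 6 to 8 without any 1 control siRNA library or replicate 1 of experiment 1 with isoproterenol. The recombination count was 1 without that last library and reached 7 without replicate 1 of experiment 2 with isoproterenol, with 3 to 5 in the other fits. In experiment 1 by itself the medians were −0.14, −0.19 and −0.23, and 4, 2 and 2 genes fell. In experiment 2 by itself they were −0.14, −0.17 and −0.23, and none passed the test.

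Histone genes fell mainly as linker histones. Of 22 tested histone genes 5 fell and none rose (median −0.13), against 2.11% of all genes called lower. Of the 5, 4 encode histone H1: Hist1h1b (−0.45 ± 0.07), Hist1h1a (−0.43 ± 0.08), Hist1h1d (−0.36 ± 0.07) and Hist1h1e (−0.26 ± 0.06). Hist1h1b went from 146 and 118, and 96.3 and 119 RPM to 102 and 91.4, and 88.2 and 73.7 RPM, lower within each experiment. Hist2h2ac was the other member (−0.43 ± 0.13, adjusted p = 0.0453), called in 2 of the 8 fits that left out a library. Many histone transcripts lack a poly(A) tail and have near-identical copies, so their share in a 3′ end library and the assignment of their reads are uncertain. None of 35 nuclear respiratory chain genes and none of 24 ATF4 stress response genes was called (medians 0.04 and 0.02). None of 9 mitochondrially encoded transcripts was called either, all 9 with positive differences (median 0.17).

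The response did not differ detectably between the 2 experiments. The test of the difference itself called 0 of 10729 genes (0%; limma, adjusted p under 0.05), with 258 at an unadjusted p under 0.05. Among genes named here, the differences that looked uneven, such as Clec12a (−1.07 and −0.53 in experiments 1 and 2) and Lyz2 (0.92 and 0.60), did not pass it. With 2 libraries a group in each experiment, this test has little power, and a p that misses the threshold does not show equal responses. Cebpb itself was at 76.1 ± 11.2 RPM without and 92.1 ± 10.3 RPM with isoproterenol, a log2 difference of 0.25 ± 0.08 that did not pass the test (adjusted p = 0.0575). Cebpb passed on values as deposited (0.28, adjusted p = 0.0235) and in 3 of the 8 fits that left out a library, those without control siRNA replicate 2 of experiment 2 (0.29, adjusted p = 0.0437) and, with isoproterenol, replicate 2 of experiment 1 (0.32, adjusted p = 0.0159) or of experiment 2 (0.30, adjusted p = 0.0363). Without replicate 1 of experiment 1 with isoproterenol the Cebpb difference was 0.15 (adjusted p = 0.25). Of the 7 genes of the C/EBP family, Cebpd rose, by 0.43 ± 0.09 (11.5 ± 1.00 to 15.8 ± 0.798 RPM).

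The siRNA against Cebpb was checked first on its target. With it, Cebpb was at 11.8 and 25.0, and 21.8 and 33.1 RPM without and at 28.5 and 27.6, and 25.8 and 23.9 RPM with isoproterenol. All 8 libraries lay below the 8 with control siRNA (61.3 to 101 RPM). For a limited set of genes the response to isoproterenol then differed. In cells with the Cebpb siRNA, isoproterenol changed 672 genes (adjusted p under 0.05) in a limma fit over all 16 libraries. That fit called 223 genes under control siRNA, so the 672 and the 522 of the 8-library fit are not like counts. Of the 522 genes, 207 were called under Cebpb siRNA with the same sign. The difference between the 2 responses was called for 23 genes (0.214% of those tested), 17 with a more positive response under control siRNA and 6 with a more positive response under Cebpb siRNA, and 741 reached an unadjusted p under 0.05. Of the 23, 15 were among the 522. The count was 12 with experiment as 1 additive term and 12 to 43 when 1 of the 16 libraries was left out. It was 43 without Cebpb siRNA replicate 2 of experiment 2 and 12 without replicate 2 of experiment 1 of either control siRNA group. At a count of 12, some of the 23 calls were lost, and which genes kept theirs is not given here.

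Osbp2 rose by 2.60 ± 0.10 under control siRNA and by 1.21 ± 0.09 under Cebpb siRNA, a difference of 1.39 ± 0.13 (adjusted p = 7.27e-06). Its level without isoproterenol was already 21.7 ± 1.53 RPM with Cebpb siRNA against 3.93 ± 0.644 RPM with control siRNA, and with the agent it was 52.1 ± 6.90 against 24.2 ± 4.06 RPM. The responses of Lyz2 differed by 0.74 ± 0.09 (adjusted p = 1.01e-04). It was at 632 ± 38.3 RPM without and 664 ± 80.6 RPM with isoproterenol under Cebpb siRNA, from an untreated level close to that of control siRNA cells (656 ± 155 RPM). Slpi and Acod1, the itaconate-producing enzyme, went in opposite directions, with 0.58 ± 0.05 and 0.51 ± 0.09 under control siRNA and −0.29 ± 0.08 and −0.48 ± 0.13 under Cebpb siRNA. The receptor cluster genes Clec4n, Clec4d and Clec4e responded by 0.56 ± 0.11, 0.39 ± 0.08 and 0.37 ± 0.08 less under Cebpb siRNA. Their adjusted p in the interaction test was 0.0263, 0.0437 and 0.0392. Il1rn (0.65 ± 0.10), Pcdh7 (0.88 ± 0.11), Mmp9 (0.62 ± 0.09), Cebpd (0.62 ± 0.12), Ccl9 (0.46 ± 0.07) and Plek (0.37 ± 0.07) also differed in that direction.

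In the other direction the largest differences were those of Nr4a2, an NR4A nuclear receptor gene and CREB target, and Il1r2, the decoy receptor of interleukin-1, both under 10 RPM and named after their values had been seen. The response of Nr4a2 was 0.36 ± 0.15 under control and 2.11 ± 0.14 under Cebpb siRNA (difference −1.76 ± 0.20, adjusted p = 6.21e-05), and that of Il1r2 was 0.17 ± 0.18 and 1.85 ± 0.25 (difference −1.71 ± 0.35, adjusted p = 0.0392). Nr4a1, at 0 in all 8 control siRNA libraries, was listed at 0, 0, 0 and 1.06 RPM without and at 3.79, 2.98, 2.76 and 2.40 RPM with isoproterenol under Cebpb siRNA. Cytip was at 4.91 ± 0.335 and 8.67 ± 1.11 RPM under control siRNA and at 9.89 ± 1.6 and 45.7 ± 3.44 RPM under Cebpb siRNA, without and with isoproterenol, a difference of −1.39 ± 0.15 (adjusted p = 2.33e-05). Gpc1, a glypican, rose in both siRNA groups, by 0.52 ± 0.10 and by 1.18 ± 0.09, while muscle enolase Eno3 and the ubiquitin ligase gene Neurl3 rose under Cebpb siRNA (1.19 ± 0.12 and 0.73 ± 0.09) and did not pass the test under control siRNA (0.16 ± 0.10 and 0.04 ± 0.10). Of the cyclic AMP pathway genes, Crem, Pde4b, Odc1 and Fos gave no called difference, which does not show equal responses. Crem was at 0.88 ± 0.10 and 1.08, Pde4b at 0.73 ± 0.10 and 0.72, Odc1 at 1.46 ± 0.07 and 1.2 and Fos at 1.45 ± 0.11 and 0.88 under control and Cebpb siRNA, with adjusted p of the difference from 0.181 to 0.995. The Fos difference, 0.56 ± 0.15, was as large as the called one of Clec4n. Without isoproterenol, mean levels under control and Cebpb siRNA were 7.68 and 12.6 RPM for Crem and 9.01 and 10.6 RPM for Pde4b. They were 30.6 and 93.6 RPM for Odc1 and 9.04 and 27.8 RPM for Fos. A single siRNA was used against Cebpb, so effects of that sequence on other transcripts and effects through Cebpb cannot be told apart.

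**Figure D4:**
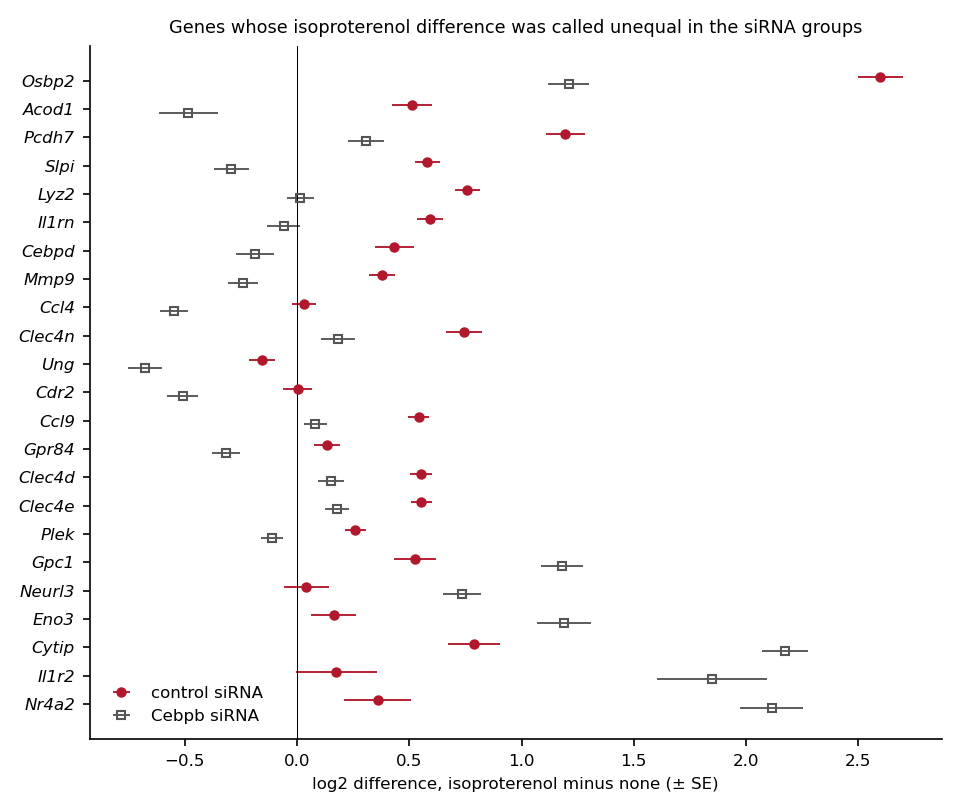
Log2 difference with against without isoproterenol (± SE, 4 libraries a group) under control siRNA (red circles) and Cebpb siRNA (grey squares) for the 23 genes whose responses were called unequal. The control siRNA response lies to the right for 17 genes, Osbp2 and Lyz2 among them, and to the left for 6, Cytip among them.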

How the data were processed

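The tables deposited by the authors, 1 for each of 16 libraries, hold log2 RPM for every gene, with the denominator counting reads of all kinds. This scale was inferred: undoing it returned whole reads for 100% of listed values, within 0.1 read. The submitters' processing notes name STAR 2.5.3a and GRCm38. No source used here names the counting tool or its use of strand, so overlapping and antisense genes cannot be told apart.

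Scaling of the 8 libraries used trimmed means of their log ratios, leaving out 30% of genes by ratio and 5% by level. Values were given a common floor (log2 0.047) and fitted with limma 3.58.1 (R 4.3.3), with trend and robust estimation, isoproterenol and experiment as terms, and Benjamini-Hochberg adjustment over all 10729 genes. RPM levels, and overlaps described beside them, are unscaled, with SDs over 4 libraries, counts of genes without overlap use scaled values, and errors of log2 differences are SEs from the fit. The difference between experiments used an interaction term. The difference between siRNA groups and the response under Cebpb siRNA were fitted over all 16 libraries with the experiment within each siRNA group.

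The comparison and the 48 gene lists were chosen with earlier results of these data known. Genes are named by rule: the 15 largest increases and 12 largest decreases among called genes of 1 sign across experiments, at 10 RPM or more on average and with no provisional symbol. To these come up to 5 called members of each list, genes at the floor in all 4 libraries of 1 group only, 5 genes per direction of each difference, and 14 genes fixed by name. Cdkn1a, Dusp1, Tlr8, Nr4a2, Il1r2, some genes with a CRE and cell type markers at 0 were added after their values had been seen. Of the names tested, 10584 matched 1 GENCODE vM21 gene and 8329 (77.6%, 155 through synonyms) a RefSeq promoter. The fit was also run on simulated libraries that had 1 dispersion for all genes. That run cannot check the fit at the uneven spread of the real libraries. Replicates differed by 4.93 to 13.4 times counting noise (chi-square per degree of freedom), so the tables are not the same library read out more than once. Whether cultures were separate was not tested. Other settings tried were scaling, filters, a pseudocount of 1 RPM, blocks, all 16 libraries, each experiment alone, leaving out each library and voom on the recovered reads, which called 483 genes. A few genes of the lists are not reported here.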

Additional observations from a re-analysis of the deposited data

Results flagged for a closer look

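Of 270 groups of 4 libraries, those of the named genes with all values above the floor, 5 held a library that stood apart from the other 3 by more than Dixon's 95% limit allows for the gap as a share of the range, and chance alone marks about 1 in 20. Of the 5, 4 are given here. With isoproterenol, replicate 2 of experiment 1 was highest for Prkar1a (268 RPM against 248 to 249), Pde8a (33.7 against 26.1 to 27.3) and Pilra (42.6 against 39.3 to 39.6), and replicate 1 of experiment 1 for Pdgfb, a growth factor gene that fell (55.0 against 43.2 to 44.2). The Pde8a call did not hold without its library, and those of Pilra and Pdgfb held.

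The responses to isoproterenol differed between control and Cebpb siRNA cells for 17 named genes, by the interaction test. The log2 difference of the responses (control minus Cebpb siRNA) was 1.39 for Osbp2, 0.99 for Acod1, 0.88 for Pcdh7, 0.87 for Slpi, 0.74 for Lyz2, 0.65 for Il1rn, 0.62 for Cebpd and Mmp9, 0.56 for Clec4n, 0.46 for Ccl9, 0.39 for Clec4d and 0.37 for Clec4e and Plek. It was −1.39 for Cytip, −1.03 for Eno3, −0.70 for Neurl3 and −0.66 for Gpc1. Levels without isoproterenol also differed between the siRNA groups for several of them, for example 111 ± 37.0 RPM of Il1rn under control and 513 ± 179 RPM under Cebpb siRNA, and the part of that in the difference was not tested.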

How the results depend on the processing

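The count of 522 genes (296 higher, 226 lower) fell to 49 (42 and 7) without a term for the experiment, 184 (135 and 49) with all 16 libraries in 1 fit, 223 (160 and 63) with the experiment within siRNA group, 127 (89 and 38) and 85 (70 and 15) in experiments 1 and 2 taken singly and 149 (115 and 34) in limma without trend and robust estimation. As deposited, 133 genes fell. Leaving out 1 library gave 303 to 461 genes, 194 to 258 higher and 109 to 203 lower, and 229 of the 522 were called in all 8 such fits. Other scalings, filters, the pseudocount and voom stayed within 1.5 times. With all 16 libraries 2 mitotic, 2 replication and 1 recombination genes fell. The replicate numbers did not pair the libraries (correlation of replicate differences between groups 0.057 and −0.144), and with a replicate block 483 genes were called, 275 higher and 208 lower, with 0 for the difference between experiments and 17 for that between siRNA groups. The block ended the calls of Hist2h2ac, Hmgcs1, Prkar1a, Rap1b and Tyrobp among the named genes and called Cebpb (adjusted p = 0.0149). The difference between experiments gave 0 in every setting. The difference between siRNA groups (23) gave 12 with experiment as 1 additive term, 15 without trend and robust estimation and 12 to 43 when 1 library was left out. Of 133 named genes called, 109 were called in every fit without 1 library. Other settings kept fewer of the 133 calls: 70 in limma without trend and robust estimation and 32 without a term for the experiment. With all 16 libraries 83 were kept, and 97 with the experiment within siRNA group. Experiments 1 and 2 taken singly kept 74 and 53. The direction turned for no called named gene, but it did for a pair that did not pass the test. Tnf was −0.031 in experiment 1 by itself and −0.0314 to 0.0582 when 1 library was left out (below 0 without replicate 1 of either control siRNA experiment or replicate 1 of experiment 2 with isoproterenol), and Neurl3 was −0.0446 to 0.1236, below 0 without control siRNA replicate 2 of experiment 2. The causes were not tested. The floor of 18 to 24 reads limits genes near 1 RPM, whose changes are understated.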

Other observations

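Genes of iron, redox and lipid mediator handling moved in both directions in control siRNA cells. Of 28 NADPH oxidase and antioxidant genes 4 rose and 2 fell, against 2.76% higher and 2.11% lower of all genes. Prdx5, a peroxiredoxin, rose by log2 0.32 ± 0.05 and mitochondrial superoxide dismutase Sod2 by 0.22 ± 0.05. Slc40a1, the iron exporter ferroportin, was at 72.8 and 66.9, and 55.6 and 67.0 RPM without and at 58.1 and 48.3, and 44.8 and 45.0 RPM with isoproterenol, lower within each experiment (−0.45 ± 0.07, limma adjusted p = 9.25e-05). Ptger4, the prostaglandin E2 receptor EP4, which also couples to cyclic AMP, fell from 22.9 ± 1.81 to 17.6 ± 1.57 RPM (−0.40 ± 0.08), with the groups apart.

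Growth factor receptors and their ligands split as well: of 30 tested genes 4 rose and 3 fell. Over all genes, 2.76% were called higher and 2.11% lower. Csf2rb, the gene of the shared receptor chain for GM-CSF and interleukins 3 and 5, rose by 0.39 ± 0.06. Its near-identical relative Csf2rb2 rose by 0.65 ± 0.11, with the assignment of reads between Csf2rb and Csf2rb2 uncertain. Tgfbr2, a receptor of transforming growth factor β, rose by 0.26 ± 0.05, and Pdgfb, a platelet-derived growth factor chain, fell by 0.42 ± 0.07 (60.7 ± 2.81 to 46.4 ± 5.71 RPM). Of 12 circadian clock genes Bhlhe40 rose (0.50 ± 0.12), and the call was made in 6 of the 8 fits that left out a library.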
